A study of Mus musculus with 20 samples.

Results

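A set of 76 homeobox genes was examined in wild-type and Eed-deficient mouse liver, before and after partial hepatectomy. They are the protein-coding genes with GENCODE M21 symbols of the LIM (Isl, Lhx), sine oculis, Nkx, NK-like (Barx, Dlx, Emx, En, Hmx, Msx, Tlx, Vax), paired-like (Alx, Otx, Pitx, Prrx), Hox-related (Cdx, Evx, Gbx) and Iroquois (Irx, of the TALE class) families. The Hox clusters and the Pax genes are not among them. The rule used names only, so genes without a single read count as members. All 76 were in the count tables, which hold 46603 gene identifiers. At least 1 read was counted for 73 of them, and Cdx1, Six6 and Nkx6-3 had none in any of the 20 libraries.

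Bulk poly(A) RNA-seq was performed on livers of 2-month-old male mice of the strain labelled C57BL6/J. Wild-type (WT) mice were C57BL/6J animals, for which the labels name no Cre transgene and no floxed allele. Knockout (KO) mice, labelled EedHepKO, carried Cre under the albumin promoter (Alb:Cre) and loxP-flanked Eed exons (Eedflox), which removes functional EED from hepatocytes. Cre under this promoter acts in the hepatocyte lineage, and a bulk liver sample also holds RNA of cells in which it is not active. Each genotype had 5 baseline livers, which were the lobes cut out at partial hepatectomy (PHx), and 5 livers collected after it, of which 1 was taken at 30 h, 2 at 40 h and 2 at 48 h. The baseline and the later samples come from different lobes, so lobe and stage cannot be told apart. Mice 1 to 5 were WT and mice 7, 8, 10, 11 and 12 were KO, and 9 of the 10 mice are numbered at both stages.

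Homeobox genes encode transcription factors that bind DNA through a homeodomain and set position and cell type in the embryo. EED is a core subunit of Polycomb repressive complex 2 (PRC2), which places trimethylation on lysine 27 of histone H3 and holds many developmental regulators silent in cells that do not use them. The promoters of such regulators tend to lie in CpG islands, stretches rich in CG dinucleotides, where PRC2 is commonly found.

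Promoter sequences of 4 members are shown because the results turn on how differently these genes were read in the same livers. Isl1 and Irx2 had no read in any WT liver and were read in every KO liver, Lhx6 was read in both genotypes, and Six6 was silent throughout. Each run is the 250 bases before the transcription start (RefSeq, GRCm38.p6), written 5′ to 3′ on the gene's strand, with CG dinucleotides in capitals.

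Isl1, chr13:116309689-116309938, minus strand: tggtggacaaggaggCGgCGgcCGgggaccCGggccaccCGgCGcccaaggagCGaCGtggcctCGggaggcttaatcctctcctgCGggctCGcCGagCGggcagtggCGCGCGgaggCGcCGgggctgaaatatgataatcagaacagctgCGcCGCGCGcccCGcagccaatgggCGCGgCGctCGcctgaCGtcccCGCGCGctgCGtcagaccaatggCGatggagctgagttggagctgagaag

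Irx2, chr13:72628570-72628819, plus strand: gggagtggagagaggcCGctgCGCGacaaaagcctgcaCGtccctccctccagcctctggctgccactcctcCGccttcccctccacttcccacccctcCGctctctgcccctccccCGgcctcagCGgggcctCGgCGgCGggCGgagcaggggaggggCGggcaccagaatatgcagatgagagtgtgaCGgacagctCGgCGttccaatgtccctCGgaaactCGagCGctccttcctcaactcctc

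Lhx6, chr2:36105409-36105658, minus strand: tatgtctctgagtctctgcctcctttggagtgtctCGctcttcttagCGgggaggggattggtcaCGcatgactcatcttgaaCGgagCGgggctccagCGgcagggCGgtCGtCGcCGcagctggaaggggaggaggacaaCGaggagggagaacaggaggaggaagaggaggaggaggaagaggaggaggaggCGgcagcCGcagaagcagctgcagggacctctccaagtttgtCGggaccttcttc

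Six6, chr12:72939632-72939881, plus strand: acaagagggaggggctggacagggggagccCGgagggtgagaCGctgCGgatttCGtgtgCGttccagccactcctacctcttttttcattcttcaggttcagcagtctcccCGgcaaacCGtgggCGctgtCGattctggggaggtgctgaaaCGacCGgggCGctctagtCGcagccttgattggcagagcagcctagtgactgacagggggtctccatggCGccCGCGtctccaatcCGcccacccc

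The search was for the letters CG, which read the same on both strands. The Isl1 run holds 33 of them, the Irx2 run 19, the Lhx6 run 14 and the Six6 run 17. Among the 32851 promoters of the same table and length, the median was 6 and 92.1% held at least 1. As many CG as in the Isl1 run were found in 4.03% of those promoters, and as many as in the Six6 run in 23.5%. The silent Six6 promoter thus held more CG than that of Lhx6. The table matched 52 of the 76 members.

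Libraries held between 21634890 and 30461351 counted reads. Levels are given as CPM, reads per 1000000 after scaling by edgeR's TMM factors. Where a group of 5 libraries had no read for a gene, 3 reads over the group were taken as the limit, which is 0.0305 CPM in WT baseline and 0.0232 CPM in WT after PHx. Such intervals and limits cover counting error only. The level of Eed was 14.6 to 23.2 CPM in WT livers and 2.75 to 7.52 CPM in KO livers, without overlap. Hepatocyte markers, 10 in number, summed to between 127979 and 146478 CPM in WT and 76596 to 102423 CPM in KO baseline livers, without overlap, and to 73893 to 118350 CPM in WT and 38629 to 93474 CPM in KO livers after PHx. Of the 10, 3 were called lower in KO at baseline and 2 after PHx. Summed over 12 markers, stellate and mesenchymal RNA was 283 to 455 CPM in WT and 636 to 741 CPM in KO baseline livers, and 245 to 384 CPM in WT and 420 to 717 CPM in KO livers after PHx, without overlap at either stage, and 6 of the 12 were called higher in KO at baseline and 5 after PHx. Summed over 9 markers, cholangiocyte RNA was 34.2 to 80.7 CPM in WT and 86.4 to 401 CPM in KO baseline livers, without overlap, and 35.7 to 257 CPM in WT and 139 to 610 CPM in KO livers after PHx. Of the 8 tested, 2 were called higher in KO at baseline and 5 after PHx, and Krt19, Krt7 and Epcam were called higher after PHx in KO (log2 2.59, 2.98 and 2.93). In bulk tissue, fewer cells of a type and less RNA per cell cannot be told apart. The sum of 8 macrophage markers was 134 to 228 CPM in WT and 306 to 391 CPM in KO baseline livers, and 60.2 to 312 CPM in WT and 67.7 to 330 CPM in KO livers after PHx. That of 8 endothelial markers was 211 to 241 CPM in WT and 256 to 304 CPM in KO baseline livers, and overlapped after PHx. The part of these cell types in the results was not tested. Of 10 pancreas markers, 7 to 9 had no read in each of the 4 groups, Ins1, Ins2 and Cpa1 among them.

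Loss of Eed was accompanied by reads from most of the 76 genes, and the number grew after hepatectomy. A WT liver held 6 to 10 of the genes at 3 reads or more. At baseline, a KO liver held 26 to 37 of them. After PHx, a KO liver held 41 to 60. The summed level of the 76 genes was 7.02 to 12.2 CPM in WT baseline livers and 6.77 to 26.2 CPM in WT livers after PHx. In KO livers it was 29.9 to 56.9 CPM at baseline and 39.8 to 203 CPM after PHx, so no KO liver fell into the range of the WT livers.

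**Figure D1:**
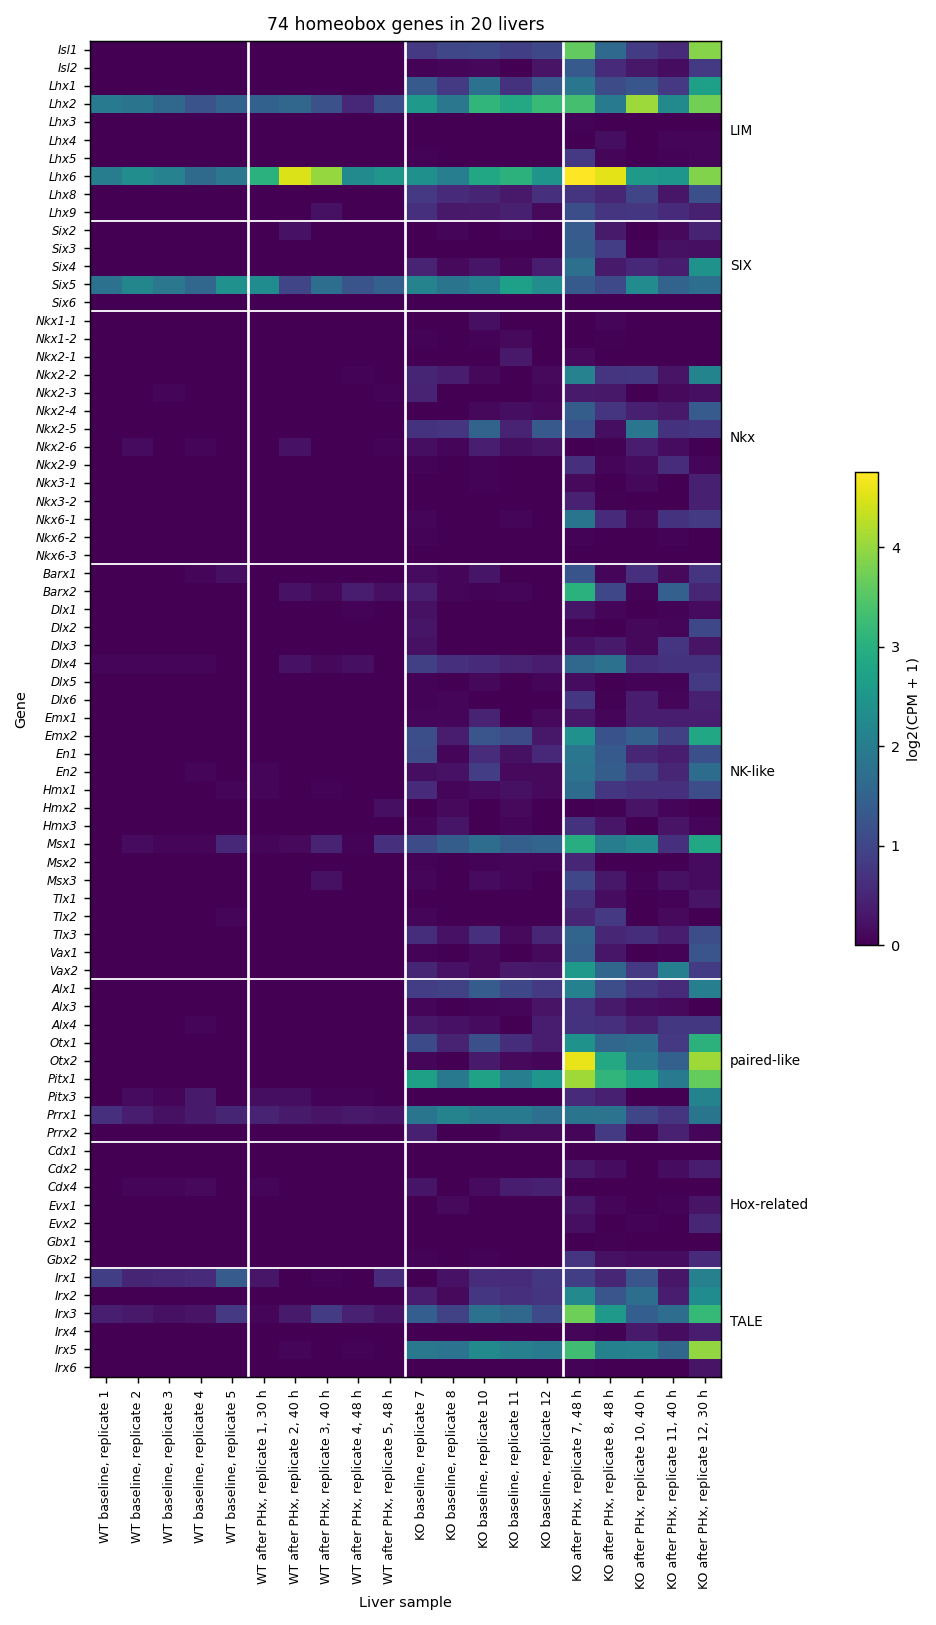
Level of 74 of the 76 homeobox genes (rows, grouped by class) in each of the 20 livers (columns, 5 per group, with the hour after PHx), as log2(CPM + 1) on the colour scale. WT livers show reads mainly from Lhx2, Lhx6, Six5, Irx1, Irx3 and Prrx1, and KO livers from members of every class.

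**Figure D2:**
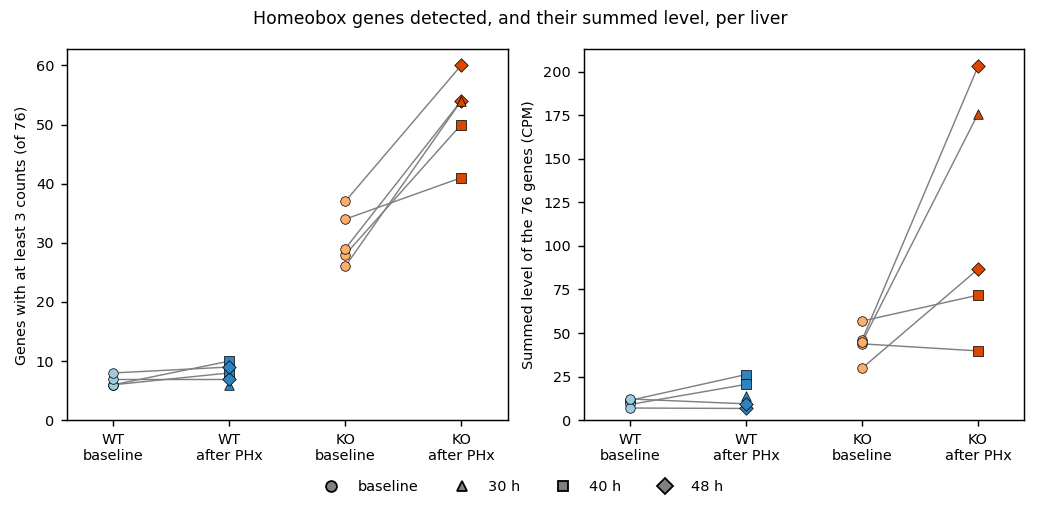
Left, number of the 76 genes with at least 3 reads in each liver; right, their summed level in CPM. Grey lines join the 2 samples of a mouse numbered at both stages and symbols give the hour after PHx. KO livers hold 26 to 37 genes at baseline and 41 to 60 after PHx, against 6 to 10 in WT livers.

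A total of 51 members had no read in any of the 10 WT libraries. In KO baseline livers 18 of the 51 reached 10 reads over the group (35.3%), and in KO livers after PHx 40 did (78.4%). The same was true of 2.23% and 8.46% of all 5648 protein-coding genes silent in WT. A wider set, all members with at most 3 reads over the 10 WT libraries, includes those 51. Together its members reached 14.5 to 30.2 CPM in KO baseline livers and 22.4 to 129 CPM in KO livers after PHx.

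Over all 76 members, reads pooled by group were higher in KO than in WT for 61 at baseline and lower for 2, and 13 had no read in either group. After PHx 71 were higher and 2 lower. Among all 21624 protein-coding genes the share that was higher was 40.5% at baseline and 45.6% after PHx. Every KO liver lay above every WT liver for 22 members at baseline and for 38 after PHx, against 10.8% and 5.61% of all protein-coding genes.

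The filter on low counts kept 30 members and left out 46. Passing the filter could itself follow from a high level in KO, so the counts of calls among the 30 describe those genes alone. At baseline 26 were called higher in KO and 0 lower by edgeR's quasi-likelihood test (adjusted p under 0.05), where 11.1% of the 14661 genes tested were called higher and 4.89% lower. After PHx 28 were called higher and 0 lower, against 16% and 8.2% of all genes. The median log2 difference of the tested members was 5.79 at baseline and 7.65 after PHx, beside -0.03 and -0.01 over all genes tested, and these medians depend on the prior count where WT had no read. The 26 genes called at baseline were all among the 28 called after PHx, and Irx1 and Otx2 were added. Of the 30, Lhx6 and Six5 were called at neither stage. Within collection hours, every KO liver lay above every WT liver for 61 of all 76 members at 30 h (1 liver per genotype), 44 at 40 h and 55 at 48 h (2 livers per genotype each), beside 36.0%, 21.1% and 24.6% of all protein-coding genes.

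Paired-like genes were among those with the highest levels in KO liver, and 7 of the 10 could be tested. At baseline 6 of the 7 were called higher in KO, and after PHx all 7 were. Pitx1, which sets hindlimb identity, had no read in any WT liver. In KO baseline livers of mice 7, 8, 10, 11 and 12 it stood at 5.51, 2.79, 5.66, 3.12 and 4.65 CPM, and after PHx at 15.9, 7.80, 5.65, 2.92 and 11.4 CPM. The KO level was at least 146-fold higher than the WT limit at baseline (adjusted p = 1.48e-05) and at least 367-fold higher after PHx (adjusted p = 4.42e-06).

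Otx2, a factor of forebrain and eye development, differed most between the stages among the tested members. No WT liver held a read of it. The KO baseline livers stood at 0.0664, 0, 0.276, 0.0831 and 0.0469 CPM, which is 13 reads in all. After PHx the same mice stood at 23.2, 6.30, 2.63, 1.75 and 15.9 CPM, or 1528 reads. Every later liver was far above every baseline liver. The KO level after PHx was at least 407-fold above the WT limit (adjusted p = 0.000146), whereas at baseline the difference was not called (adjusted p = 0.118; 0.0426 with DESeq2). Otx1, its close relative in the brain, was already present at baseline, at 1.10, 0.380, 1.24, 0.540 and 0.282 CPM. After PHx it stood at 4.47, 1.95, 2.21, 0.723 and 7.34 CPM, and was at least 127-fold above the WT limit (adjusted p = 0.000102).

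The remaining paired-like genes reached lower levels. Alx1, a factor of the face, was at 1.03 ± 0.349 CPM (SD, n = 5) in KO baseline livers and 1.74 ± 1.34 CPM (SD, n = 5) after PHx, with no read in WT. Alx4, of limb and skull development, had 1 read over all WT libraries. KO livers held 0.232, 0.169, 0.103, 0 and 0.282 CPM of it at baseline and 0.629, 0.571, 0.343, 0.695 and 0.710 CPM after PHx. The baseline call of Alx4 (adjusted p = 0.0238) was lost when any 1 of WT baseline replicates 1, 2, 3 or 5 or of KO baseline replicates 7 or 12 was left out (adjusted p up to 0.0621), and the gene overlaps Ext2 on the other strand, which held 15216 reads. Prrx1, a gene of limb and craniofacial mesenchyme, was read in every WT liver, at 0.345 ± 0.162 CPM (SD, n = 5) at baseline, and reached 2.82 ± 0.377 CPM (SD, n = 5) in KO, a log2 difference of 3.03 (SE 0.43, adjusted p = 7.89e-05). Prrx1 is expressed in mesenchymal cells, whose markers were also higher in KO, as given above. Pitx3, a lens and midbrain gene, fell below the filter and overlaps the abundant liver gene Elovl3 by 10 bases.

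**Figure D3:**
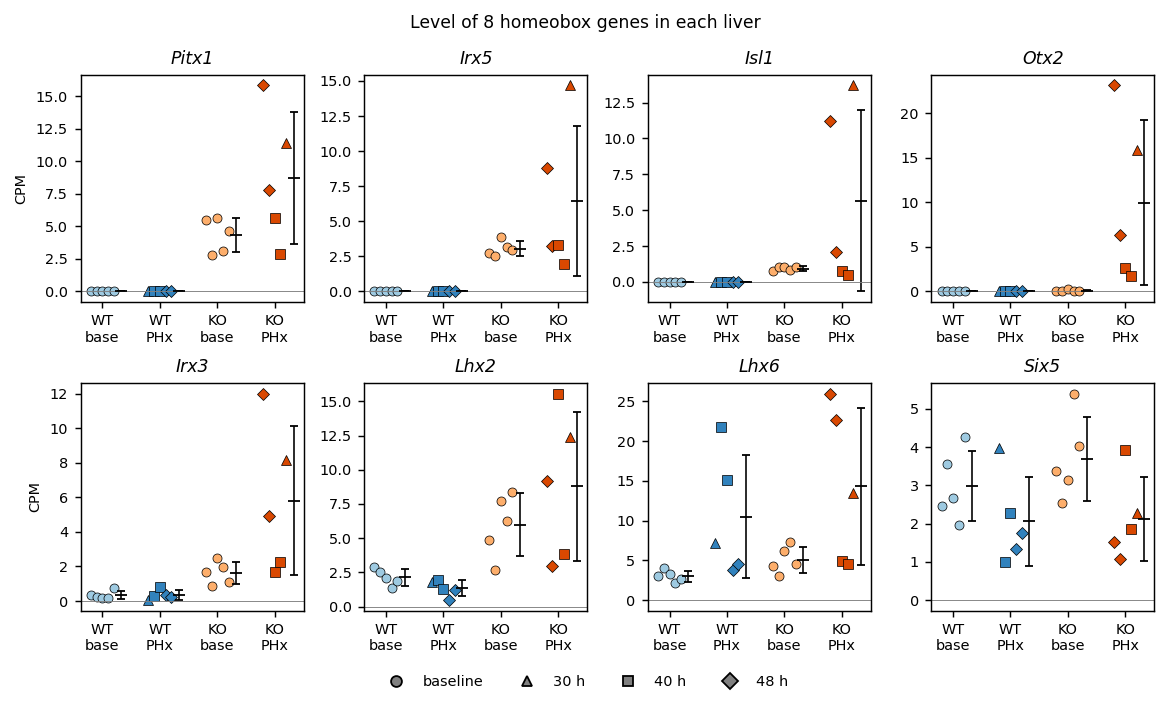
CPM of 8 homeobox genes in each of the 20 livers, 5 per group, with symbols for the hour after PHx; the bar beside each group is mean ± SD. Pitx1, Irx5, Isl1 and Otx2 have no reads or almost none in WT livers, whereas Lhx6 and Six5 overlap between genotypes.

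The Iroquois genes pattern heart, limb and neural tissue and lie in clusters on chromosomes 8 and 13. Of the 6 genes, 4 could be tested. At baseline 3 of the 4 were called higher in KO (Irx2, Irx3 and Irx5), and after PHx all 4 were. Irx5 had no read in WT baseline livers and 2 reads in WT livers after PHx. It stood at 2.75, 2.49, 3.86, 3.20 and 2.96 CPM in KO baseline livers, a narrow range, and at 8.81, 3.25, 3.32, 1.97 and 14.7 CPM after PHx. The KO baseline level was at least 101-fold above the WT limit (adjusted p = 1.2e-05), and the difference after PHx was called too (adjusted p = 4.06e-06).

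Irx3, in the same cluster as Irx5, differed from it in being read in every WT liver. It stood at 0.325, 0.250, 0.154, 0.183 and 0.734 CPM in WT baseline and 0.0436, 0.261, 0.799, 0.354 and 0.206 CPM in WT after PHx. KO livers held 1.69, 0.887, 2.48, 1.99 and 1.08 CPM at baseline and 12, 4.92, 1.68, 2.25 and 8.14 CPM after PHx. All KO livers lay above all WT livers. The difference was 5.00-fold at baseline (log2 2.28, SE 0.63, adjusted p = 0.0181) and 16.7-fold after PHx (log2 4.10, SE 0.66, adjusted p = 0.000177). Without WT baseline replicate 3 or replicate 4 the baseline call was lost (adjusted p = 0.0524 and 0.0536).

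Irx2 was silent in WT and stood at 0.299, 0.0845, 0.690, 0.582 and 0.657 CPM in KO baseline livers. After PHx it stood at 3.69, 1.38, 2.29, 0.278 and 3.98 CPM, at least 90.5-fold above the WT limit (adjusted p = 0.000249). Irx1 behaved otherwise, with the WT baseline livers at 0.845, 0.4, 0.463, 0.504 and 1.56 CPM and the KO baseline livers at 0, 0.169, 0.517, 0.499 and 0.704 CPM. The genotypes overlapped, and the baseline difference was not called (log2 -1.0, SE 0.92, adjusted p = 0.492). After PHx Irx1 was at 0.218, 0, 0.0380, 0 and 0.481 CPM in WT and at 0.839, 0.417, 1.37, 0.222 and 3.22 CPM in KO, a log2 difference of 2.96 (SE 0.98, adjusted p = 0.0336). That call did not survive leaving out WT mouse 1, 2, 3 or 4 or KO mouse 12 after PHx (adjusted p 0.0517 to 0.104). Irx4 and Irx6 were silent in WT and in KO baseline livers, and after PHx Irx4 was found in all 5 KO livers, at 0.0220 to 0.284 CPM.

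LIM-homeodomain genes carry a pair of LIM zinc fingers beside the homeodomain and specify neurons, limb and gonad. Of the 10 genes, 6 could be tested, and 5 of the 6 were called higher in KO at each stage. Isl1, a factor of motor neurons, heart progenitors and pancreatic islets, was silent in WT. At baseline the KO livers stood close together, at 0.730, 1.01, 1.07, 0.831 and 1.03 CPM, at least 30.5-fold above the WT limit (adjusted p = 0.00636). After PHx they were spread over 11.2, 2.09, 0.763, 0.473 and 13.7 CPM, at least 212-fold above the limit (adjusted p = 0.000385). Lhx1, a head-organizer and kidney gene, had no WT read and had a KO level of 1.38 ± 0.743 CPM (SD, n = 5) before surgery and of 2.27 ± 1.89 CPM (SD, n = 5) afterwards. Lhx8 and Lhx9, of forebrain and gonad, were lower, at 0.493 ± 0.178 and 0.304 ± 0.17 CPM (SD, n = 5) in KO baseline livers.

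Lhx2 and Lhx6 were the LIM genes read in every WT liver, and Lhx9 had 4 reads in WT after PHx replicate 3. Lhx2, which is expressed in hepatic stellate cells, stood at 2.86, 2.55, 2.06, 1.33 and 1.83 CPM in WT baseline and 1.79, 1.96, 1.26, 0.461 and 1.24 CPM in WT after PHx. KO livers held 4.88, 2.70, 7.72, 6.27 and 8.36 CPM at baseline and 9.20, 2.94, 15.6, 3.84 and 12.4 CPM after PHx. The lowest KO baseline liver fell within the WT range, and after PHx the genotypes did not overlap. The difference was 2.88-fold at baseline (log2 1.49, SE 0.45, adjusted p = 0.0282) and 5.94-fold after PHx (log2 2.71, SE 0.47, adjusted p = 0.00034). At baseline the call was lost without WT baseline replicate 3, 4 or 5 or KO baseline replicate 10, 11 or 12 (adjusted p 0.05 to 0.077). Stellate and mesenchymal markers were higher in the same livers, as given above, and their part in the Lhx2 difference was not tested.

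Lhx6, a gene of cortical interneurons and teeth, was the member with the highest level in KO liver, 14.3 ± 9.84 CPM (SD, n = 5) after PHx, and yet was not called between genotypes. WT livers stood at 3.06, 4.00, 3.29, 2.11 and 2.71 CPM at baseline, and KO livers at 4.25, 3.08, 6.21, 7.31 and 4.51 CPM (log2 0.74, SE 0.50, adjusted p = 0.337). After PHx WT livers stood at 7.24, 21.8, 15.1, 3.76 and 4.60 CPM and KO livers at 26, 22.6, 4.92, 4.61 and 13.4 CPM (log2 0.45, SE 0.49, adjusted p = 0.54). The genotypes overlapped at both stages. A fit of the baseline livers alone did call the gene higher in KO (adjusted p = 0.0285).

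The sine oculis genes act with Eya proteins in ear, kidney, eye and muscle. Of the 6 genes, 3 could be tested, and Six4 was called higher in KO at each stage. Six4 stood at 0.365, 0.0845, 0.207, 0.0415 and 0.282 CPM in KO baseline livers and 2.37, 0.264, 0.458, 0.306 and 4.40 CPM after PHx, with no read in WT. The baseline call of Six4 (adjusted p = 0.0467) rests on 26 reads and was lost without any of the 5 WT baseline replicates and without KO baseline replicate 7, 10 or 12 (adjusted p 0.0686 to 0.0962). Six5, a broadly expressed member of the family, stood at 2.47, 3.55, 2.68, 1.97 and 4.27 CPM in WT baseline and 3.38, 2.54, 3.14, 5.4 and 4.04 CPM in KO baseline. After PHx it was at 3.97, 1.00, 2.28, 1.35 and 1.75 CPM in WT and 1.53, 1.08, 3.93, 1.86 and 2.27 CPM in KO. Its genotypes overlapped at both stages (adjusted p = 0.632 and 0.952). On the scale of CPM per kilobase of exon, Six5 stood at 0.993 in WT baseline liver, above Lhx6 (0.631), Lhx2 (0.484) and Irx1 (0.288).

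Nkx genes, which include regulators of the ventral neural tube, heart, gut and pancreas, mostly stayed at low levels. Only 2 of the 14 could be tested, and both were called higher in KO at each stage. Nkx2-5, a factor of heart muscle, was silent in WT and at 1.00 ± 0.644 CPM (SD, n = 5) in KO baseline livers, at least 33-fold above the WT limit (adjusted p = 0.00207). After PHx it was at 1.07 ± 0.963 CPM (SD, n = 5), and its response to PHx was not called (log2 0.09, SE 0.70, adjusted p = 0.93). Nkx2-2, of the ventral neural tube and the islets, had 1 read over all WT libraries. In KO livers it stood at 0.398, 0.296, 0.0690, 0 and 0.0939 CPM at baseline and 3.30, 0.637, 0.687, 0.195 and 3.41 CPM after PHx. The difference from WT was called after PHx (adjusted p = 0.000621). At baseline (adjusted p = 0.0373) the call was lost without any of the 5 WT baseline replicates and without KO baseline replicate 7 or 8 (adjusted p 0.0577 to 0.0893). Nkx6-1, which specifies beta cells and motor neurons, had 3 reads in KO baseline livers and 149 after PHx, when it was found in all 5.

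NK-like genes were the largest class, with 23 members, of which 8 could be tested. All 8 (Dlx4, Emx2, En1, En2, Hmx1, Msx1, Tlx3 and Vax2) were called higher in KO at each stage. In KO livers after PHx 22 of the 23 reached 10 reads over the group, against 11 at KO baseline, 3 in WT after PHx and 1 at WT baseline. Msx1, a gene of teeth, skull and limb, reached the highest KO level of the class. It stood at 0, 0.1, 0.0515, 0.0459 and 0.459 CPM in WT baseline and 1.16, 1.65, 2.24, 1.70 and 1.92 CPM in KO baseline, 12.1-fold higher (log2 3.62, SE 0.82, adjusted p = 0.00507). After PHx WT livers stood at 0.0436, 0.0870, 0.380, 0.0355 and 0.584 CPM and KO livers at 6.74, 3.03, 3.70, 0.584 and 6.15 CPM (log2 4.10, SE 0.79, adjusted p = 0.000893). KO and WT did not overlap at baseline, while after PHx the livers of KO mouse 11 and WT mouse 5 stood at about the same level.

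Vax2, a gene of the ventral retina, was silent in WT and stood at 0.398, 0.169, 0.0690, 0.249 and 0.235 CPM in KO baseline livers. After PHx it was at 4.88, 1.98, 0.725, 3.14 and 0.805 CPM, at least 107-fold above the WT limit (adjusted p = 0.000102). En2, of the midbrain and hindbrain, had 1 read in each WT group and stood at 0.133, 0.169, 0.828, 0.0831 and 0.0939 CPM in KO baseline livers. After PHx it stood at 2.49, 1.65, 0.877, 0.417 and 2.22 CPM (KO against WT, adjusted p = 5.17e-05). Hmx1, of eye and ear, had 3 WT reads in all and stood at 0.498, 0.0423, 0.103, 0.166 and 0.0939 CPM in KO baseline livers. After PHx it stood at 2.19, 0.681, 0.572, 0.556 and 1.18 CPM (adjusted p = 0.000102). The baseline call of Hmx1 (adjusted p = 0.0168) was lost without KO baseline replicate 7 (adjusted p = 0.0667). Emx2, of cortex and urogenital tract, was silent in WT and at 0.854 ± 0.544 CPM (SD, n = 5) in KO baseline livers and 2.88 ± 2.27 CPM (SD, n = 5) after PHx.

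None of the 7 Hox-related genes passed the filter. Gbx2, of the midbrain-hindbrain boundary, reached the highest level in KO livers, 0.659, 0.154, 0.114, 0.111 and 0.473 CPM after PHx, at least 12.2-fold above the WT limit. It overlaps D130058E05Rik on the other strand, which held 77 reads against 48 of Gbx2. Cdx2, a master gene of the intestine, had no read in WT or KO baseline livers and was found in 4 of 5 KO livers after PHx, at up to 0.284 CPM. Cdx4 went the other way, with reads in 4 of 5 KO baseline livers (0.199, 0, 0.103, 0.291 and 0.329 CPM) and none after PHx.

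Members below the filter were tested once in a fit with no filter, over 73 members. After PHx 49 of the 73 were then called higher in KO, where 10.3% of the 25585 genes in that fit were, and at baseline 27 were, where 6.3% were. From the LIM, sine oculis and Nkx classes, the members below the filter that were called after PHx were Isl2, Lhx5, Six3, Nkx2-4, Nkx2-9 and Nkx6-1. Isl2, of motor and sensory neurons, was at 1.53, 0.483, 0.229, 0.111 and 0.757 CPM in KO livers after PHx (adjusted p = 0.00175). Six3, of the forebrain and eye, was absent from KO baseline livers and at 1.65, 0.813, 0.0381, 0.167 and 0.142 CPM after PHx (adjusted p = 0.0101). Barx2 stood out among the NK-like genes for the spread over livers, 7.19, 1.01, 0.0381, 1.75 and 0.426 CPM in KO after PHx (adjusted p = 0.0185), and it was also read in 4 of 5 WT livers after PHx, at up to 0.284 CPM.

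The responses to hepatectomy were tested in each genotype. Of the 30 tested members, 16 had no read in either WT group, so no WT response was measured for them. In WT livers 1 of the 30 tested members, Lhx6, was called higher after PHx and 0 lower, where 11.4% of all genes tested were called higher and 8.68% lower. At an unadjusted p under 0.05, 2 members passed. In KO livers 12 were called higher (Alx4, En2, Hmx1, Irx2, Irx3, Isl1, Lhx6, Nkx2-2, Otx1, Otx2, Six4 and Vax2) and 0 lower, against 17.5% and 12.1% of all genes. The median log2 response of the tested members was 1.43 in KO, beside 0.10 over all genes. Pooled reads of 65 of the 76 members were higher after PHx in KO, 8 were lower and 3 had no read, and the higher share among all protein-coding genes was 46.6%.

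Of the tested members, Otx2 had the largest response in KO, 92.9-fold (log2 6.59, SE 0.97, adjusted p = 0.00126). Vax2 followed with 11-fold (log2 3.34, SE 0.67, adjusted p = 0.00458) and Nkx2-2 with 8.11-fold (log2 3.20, SE 0.88, adjusted p = 0.0146). En2 rose 5.33-fold (log2 2.50, SE 0.68, adjusted p = 0.0113), and Hmx1 5.18-fold (log2 2.45, SE 0.65, adjusted p = 0.0103). These 5 were the calls that held when each KO library was left out in turn. Six4 rose 6.29-fold (log2 2.93, SE 0.91, adjusted p = 0.0317), a call lost without KO baseline replicate 8, 10, 11 or 12 or KO after PHx replicate 7 or 12 (adjusted p 0.0568 to 0.0868).

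The other 6 calls did not hold when each mouse was compared with itself (the replicate block). Isl1 rose 5.28-fold (log2 2.58, SE 0.84, adjusted p = 0.0373), and 1.48 (adjusted p = 0.248) on the log2 scale within mice. Irx2 rose 4.55-fold (log2 2.31, adjusted p = 0.0303), with 2.20 (adjusted p = 0.0752) within mice. The values within mice were 1.97 (adjusted p = 0.0647) for Otx1, 2.01 (adjusted p = 0.0825) for Alx4 and 1.6 (adjusted p = 0.106) for Irx3, beside log2 2.21 (adjusted p = 0.0251), 1.88 (adjusted p = 0.0343) and 1.83 (adjusted p = 0.0257). All 5 calls were also lost when some KO libraries were left out. Those libraries were KO after PHx replicates 7 and 12 for Isl1, Irx2, Irx3 and Otx1, KO after PHx replicates 11 and 12 for Alx4, and 2 to 5 of the KO baseline replicates for each, with adjusted p up to 0.0947. Among members below the filter used here, Nkx6-1 (log2 5.07, adjusted p = 0.00726), Barx2 (4.33, adjusted p = 0.01) and Nkx2-4 (3.66, adjusted p = 0.0356), were called within mice.

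Lhx6 rose in both genotypes, by 3.35-fold in WT (log2 1.79, SE 0.51, adjusted p = 0.0181) and 2.99-fold in KO (log2 1.5, SE 0.50, adjusted p = 0.031). In WT the 40 h livers were the highest, at 21.8 and 15.1 CPM. The WT 30 h liver stood at 7.24 CPM and the 48 h livers at 3.76 and 4.60 CPM. In KO the order of 40 h and 48 h was the opposite, with the 48 h livers at 26 and 22.6 CPM and the 40 h livers at 4.92 and 4.61 CPM. The KO 30 h liver stood at 13.4 CPM. With at most 2 livers per hour and genotype that difference in timing was not tested. The WT call did not survive leaving out WT mouse 2 after PHx (adjusted p = 0.0705) and within mice (log2 1.57, adjusted p = 0.106). The KO call was lost without KO baseline replicate 7, 8 or 12 or KO after PHx replicate 7 or 8 (adjusted p 0.0646 to 0.0953) and within mice (log2 1.23, adjusted p = 0.13).

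The test of the difference between the genotypes' responses called 0 members higher and 0 lower, where 0.164% and 0.225% of all genes were called. With edgeR 1 member passed at an unadjusted p under 0.05, and DESeq2 called 1, Otx2. A gene with no read in either WT group has no WT response to set against that in KO, so neither test measures a difference of responses for such genes, Otx2 among them.

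**Figure D4:**
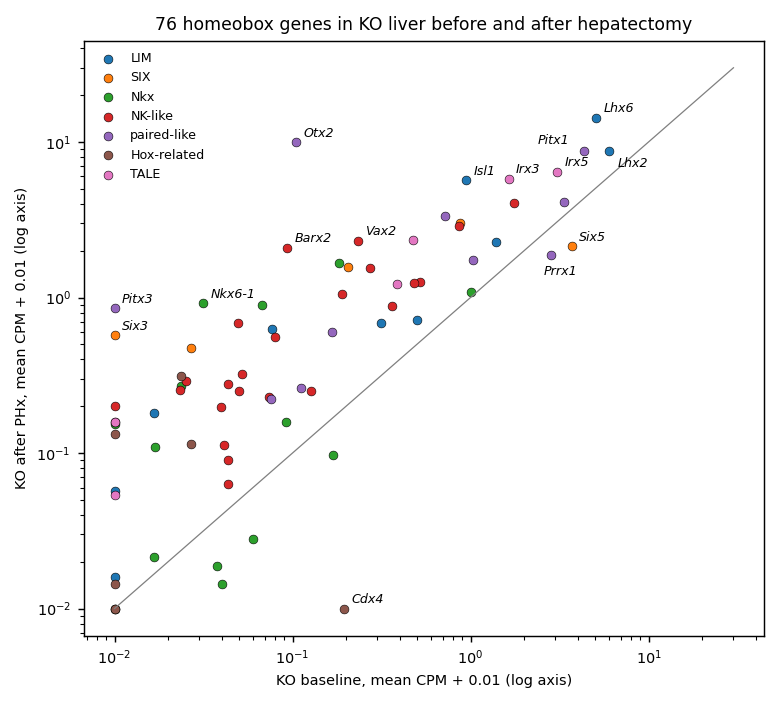
Mean level of each of the 76 genes in KO baseline livers (horizontal) and KO livers after PHx (vertical), as CPM + 0.01 on log axes, n = 5 per group, coloured by class. The grey line marks equal levels; Otx2 lies farthest above it, and Cdx4 and Six5 lie below it.

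The KO livers after PHx differed widely among themselves. The summed level of the 76 genes rose 4.41-fold from baseline in mouse 7 (48 h), 3.92-fold in mouse 12 (30 h) and 2.90-fold in mouse 8 (48 h). It rose 1.26-fold in mouse 10 and was 0.908-fold in mouse 11, both taken at 40 h. Of 63 members with at least 10 reads in KO livers after PHx, mouse 7 had the highest level for 34 and mouse 12 for 20. Mice 11, 10 and 8 had the lowest level for 24, 22 and 14. The livers of mice 7 and 12 were thus the high ones. Their stellate and mesenchymal markers summed to 707 and 717 CPM, against 420 to 566 CPM in the other KO livers after PHx. Macrophage markers summed to 67.7 and 127 CPM, against 299 to 330 CPM. Sums of cholangiocyte, endothelial and hepatocyte markers did not set these livers apart, and the part of cell types was not tested. With 1 or 2 livers per hour, hour and mouse cannot be told apart. Without mice 7 and 12 after PHx, an alternative chosen after seeing these values, 2 members were still called higher after PHx in KO, Otx2 (log2 5.11, adjusted p = 0.00334) and Vax2 (log2 3.11, adjusted p = 0.0119). Under that alternative 31 members were tested and 28 called higher against WT after PHx, and Irx1 was no longer among them. With no filter, 24 of 73 members were called higher after PHx in KO and 1 lower (Cdx4, adjusted p = 0.00947), where 9.34% and 5.7% of all genes in that fit were called. Without mouse 7 alone 5 responses were called, without mouse 12 alone 6, and without the 30 h livers 7.

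Some members lie side by side in the genome, and neighbours were set against each other over the 10 KO livers, 5 of each stage. The 2 genes of a pair are read from the same libraries, and the part of stage in these correlations was not tested. Six3 and Six2 on chromosome 17, 55.0 kb apart, had a Pearson's r of log2(CPM + 1) of 0.91 (n = 10 livers), and Nkx2-4 and Nkx2-2 on chromosome 2, 92.1 kb apart, had r 0.94 (n = 10 livers). For the 3 pairs of Dlx genes r was between 0.31 and 0.46. It was -0.21 for Hmx3 and Hmx2, which are 3.85 kb apart, at sparse counts that show little either way.

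Most of the 76 genes had a start rich in CG. Over the first 300 bases of the transcript the count of CG ran from 4 to 57 with a median of 24.5, against 13 over all protein-coding genes, and the ratio of observed to expected CG was 0.79 against 0.58. A ratio above 0.6 together with more than 50% G and C was found at 60 of the 76 members (78.9%) and 45.9% of all protein-coding genes. The 12 members with fewer than 10 reads in both KO groups had a median of 22.5 CG and the 64 members above that limit one of 25.5, and 66.7% and 81.3% of them met both criteria.

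**Figure D5:**
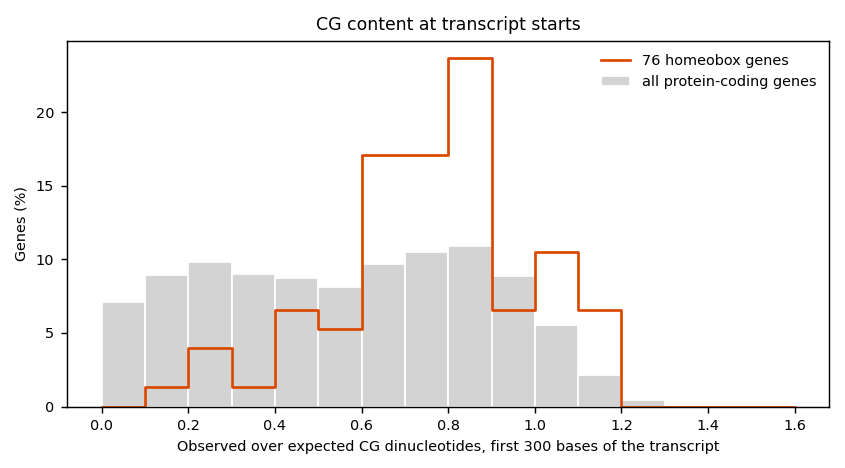
Ratio of observed to expected CG dinucleotides in the first 300 bases of the transcript, as the percent of genes in bins 0.1 wide, for the 76 homeobox genes (line) and all protein-coding genes (grey bars). The line has its peak between 0.8 and 0.9 and the median of the 76 genes is 0.79.

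Other homeobox genes were counted for comparison. Of 28 that work in liver or are widely expressed, 28 were tested. At baseline 3 were called higher (Cux2 among them) and 3 lower (Onecut2 and Prox1 among them) in KO. The shares over all genes tested were 11.1% higher and 4.89% lower. After PHx 6 were higher and 3 lower, against 16% and 8.2% of all genes tested. Of 30 further homeobox genes with restricted expression in the embryo, 4 could be tested, and Gsc and Shox2 were called higher in KO at each stage. Gsc, a gene of the gastrula organizer, reached 4.35 ± 1.93 CPM (SD, n = 5) in KO baseline livers from no read in WT baseline and so stood beside Pitx1 at 4.34 CPM. The number of these 30 genes with at least 10 reads was 3 in WT baseline, 5 in WT after PHx, 6 in KO baseline and 15 in KO after PHx.

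Reads can be shared between overlapping genes, and the strand setting of the counting is not given in the sources used here. Another gene overlaps 32 of the members, on the other strand for 28, and for 8 members with reads of their own the gene on the other strand held at least as many. Among the members named above these include Alx4, Gbx2, Hmx2, Hmx3 and Pitx3, and for them reads of the partner cannot be told apart.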

How the data were processed

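Members were found by symbol in GENCODE M21, which matched 46091 of the 46603 identifiers. The members and gene lists were chosen with earlier results of these data known. The values are raw read counts per gene as the authors deposited them, from uniquely mapped reads on mm10, per the labels. The series text names FastQC 0.11.5 and fastp 0.20.0, and the submitters' processing notes name Trimmomatic 0.36 and FastQC 0.11.5. The aligner, the counting tool, its strand setting and its annotation are not given in the sources used here.

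All 20 libraries were fitted in 1 model with 4 group means in edgeR 4.0.16 (R 4.3.3) with TMM scaling and filterByExpr, which kept 14661 genes. The quasi-likelihood test was adjusted by Benjamini-Hochberg over all genes tested, with a threshold of 0.05, and tested on simulated data. Standard errors are the log2 fold change divided by the square root of F. DESeq2 1.42.0 was an alternative. Other alternatives were library size alone, no filter, a CPM filter, a fit of the compared samples alone, a time term, the replicate block and each library left out.

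Values in every sample are given for members with a mean of at least 5 CPM in a KO group or 0.5 CPM in WT baseline, members called in a response to PHx, and the highest of each class in KO. Members named beyond that were chosen after their values were seen, and the values of some genes are not reported here. The labels number the same 9 mice at both stages, so the pairing comes from the labels. Deviations of a mouse's 2 samples from their group means correlated over genes at -0.05 to 0.15. WT baseline replicate 1 carries no mouse number and is left out of the block with WT mouse 1. No source describes repeat libraries of a liver, and each mouse counts as 1 replicate.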

Additional observations from a re-analysis of the deposited data

How the results depend on the processing

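Among single members named with values, 978 combinations of comparison and alternative kept their side of the threshold with no change of direction, 100 lost the call, 6 gained it and 16 changed direction, all on values that were called neither before nor after. With each library left out, the log2 difference of Six5 after PHx ran from -0.30 to 0.41, and the WT responses of En2 from -1.63 to 1.40, of Hmx1 from -0.0632 to 2.09 and of Irx3 from -0.59 to 0.56. The WT response of Hmx1 was -0.28 with the replicate block, -0.24 in the same samples with no block and -0.0641 without the 30 h livers. The KO response of Irx5 was -0.10 without the 2 highest KO livers after PHx. At baseline the 26 members called higher in KO became 12 when the baseline libraries were fitted alone, where 14 members passed the filter, and 21 to 25 with each library left out. After PHx the 28 calls became 49 with no filter, where 73 members were tested, and 27 to 30 with each library left out. Responses to PHx rested on fewer libraries. In KO the 12 calls became 24 with no filter, 5 to 15 with each library left out, 7 without the 30 h livers and 2 without the 2 highest KO livers after PHx. The count of members called lower after PHx in KO was 1 with no filter (Cdx4) and 0 to 1 with each library left out (Six5 without KO after PHx replicate 10, log2 -1.14, adjusted p = 0.0245). In WT the 1 call higher was 0 to 1 with each library left out, and the count called lower was 0 to 1 (Irx1 without WT after PHx replicate 5, adjusted p = 0.0364). The difference of responses had 0 calls with edgeR and 1 with DESeq2 (Otx2, which has no WT reads). In the paired analysis (replicate block, 9 mice), 9 members were called higher in KO and 1 in WT (Barx2, log2 5.21, adjusted p = 0.0407), against 15 and 1 in the same samples with no block. Scaling by library size alone put the median of all genes at 0.37 to 0.45 on the log2 scale in comparisons of 2 groups, where it was -0.03 to 0.10 with TMM scaling, and the members' calls were 26 at baseline and 28 after PHx under it.

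Depth limits what can be said of the 46 members below the filter, most of which had few reads per library. Groups of 5 livers and 3 collection hours leave the spread after PHx poorly measured.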

Other observations

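Genes that some of the members are known to control in their own tissues were also counted, from lists chosen with earlier results of these data known. Of 8 motor neuron and spinal cord genes, all 8 had no read in WT livers, 5 had none in KO baseline livers and 2 (Chat and Slc18a3) had none in KO livers after PHx, where 3 reached 10 reads over the group. None of the 8 passed the filter, as was the case for 8 skeletal muscle genes and 7 pituitary genes. Myod1, Myog, Myf5 and Myf6, the factors that determine skeletal muscle, had no read in any group although Six4 was read in KO livers. Of the other 4 muscle genes, Acta1 had 0 reads in WT, 1 in KO baseline and 23 in KO livers after PHx, and Myh3, Ckm and Chrna1 had at most 6 in any group. The hormone genes Lhb, Fshb, Tshb and Prl of the pituitary, where Pitx1 acts, likewise had no read in any group. Pomc had 14, 9, 11 and 19 reads in WT baseline, WT after PHx, KO baseline and KO after PHx. In the same order Cga had 4, 1, 1 and 0 reads, and Gh had 1 read, in KO baseline.

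Of 8 heart genes, 2 were tested, Actc1 and Tnnt2. Actc1 was called higher in KO at baseline, and both were after PHx. The atrial peptide gene Nppa had no read in any group, although Nkx2-5 was read in KO livers. Of 10 intestinal genes, 5 were tested, and Krt20 and Vil1 were called higher in KO at both stages, with Cdh17 added after PHx. Cdx1 and Cdx2 had no read in KO baseline livers, where Krt20 and Vil1 were already called. Krt20 and Cdh17 also had 44 and 115 reads in WT livers after PHx, where Cdx1 and Cdx2 had none. The part of Cdx genes in these levels was not tested. Fabp2 was called lower in KO at baseline and Lgals4 after PHx. The summed level of the 10 intestinal genes was 67.6 to 75.6 CPM in WT baseline and 34.1 to 52.7 CPM in KO baseline livers, and most of it came from Fabp2 (means of 66.8 and 33.6 CPM). After PHx the sum was 88.5 to 159 CPM in WT and 84.7 to 328 CPM in KO livers. Of 9 lung and thyroid genes 2 were tested, and neither was called between genotypes.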
